A study of Homo sapiens with 12 samples.

Results

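The short arm of human chromosome 19 carries a run of zinc finger genes in band 19p13.2, and 34 genes of this band, grouped by name and band, were followed here. Of the 34, 29 had an array transcript cluster (the set of probes that reads a transcript) annotated with that gene alone, out of 18417 genes in all. ZNF20, ZNF559, ZNF625 and ZNF490 lay only on clusters annotated with several genes, ZNF878 was not listed in the annotation, and no value is given for these 5. The cells were NCCIT, an established human line of embryonal carcinoma with pluripotent features, transfected with siRNA. There were 2 Affymetrix Human Gene ST arrays, each from 250 ng of RNA, for each of 6 conditions: siNTC (a non-targeting control), siWDR5, siSETD2, siEED, siRNF2 and siEED+RNF2 (the dual knockdown). WDR5 is a core subunit of the MLL/COMPASS complexes that methylate H3K4, EED is a subunit of the H3K27 methyltransferase PRC2, RNF2 is the ubiquitin ligase of PRC1 that acts on H2AK119, and SETD2 trimethylates H3K36. All arrays came from 1 cell line, the titles of the siNTC arrays add that they are a re-analysis, and neither the labels nor the study's methods say whether the 2 replicates were grown apart, so the p-values rest on a spread that may be technical. Every comparison against siNTC uses the same 2 siNTC arrays.

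The proteins made by most of these genes carry a row of C2H2 zinc fingers, each of which contacts a few bases of DNA, and many also carry a KRAB box. KRAB binds the corepressor TRIM28, which brings in the H3K9 methyltransferase SETDB1, HP1 proteins and histone deacetylases, and KRAB zinc finger proteins are best known for silencing transposable elements in early embryonic cells. The genes arose by repeated tandem duplication, so neighbours in a cluster resemble each other in sequence. The individual targets of most members are little known, and for that reason only a few members are given a role below.

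By position the measured members fell into 2 blocks along the chromosome, split at the widest gap between neighbours that left at least 5 on each side. The block nearer the telomere, called distal here, held 9 members from ZNF317 to ZNF846, and the block nearer the centromere, called proximal, held 20 from ZNF653 to ZNF791. Promoter sequences are shown first, because motif counts differ between the blocks and near copies can be set side by side. RefSeq (GRCh38.p14) gave the 250 bases before a listed start of the gene for 28 of the 29 members, ZNF763 being without one, and for 14237 of the genes measured. Distal ZNF121 (chr19:9584505-9584754, minus strand) and ZNF266 (chr19:9435574-9435823, minus strand) are followed by 6 proximal promoters, those of ZNF69 (chr19:11887532-11887781, plus strand), ZNF491 (chr19:11798273-11798522, plus strand), ZNF442 (chr19:12365684-12365933, minus strand), ZNF799 (chr19:12401272-12401521, minus strand), ZNF44 (chr19:12294884-12295133, minus strand) and ZNF844 (chr19:12064481-12064730, plus strand). Each is written 5′ to 3′ on the strand of the gene and ends at the base before the listed start. For ZNF442 and ZNF799 that start lies inside the RefSeq gene span, which reaches 12373779 and 12415084. The same holds for ZNF560, ZNF563 and ZNF846, which are not printed. For these members the stretch does not lie before the outer end of the gene. Capitals mark CCAAT, the cAMP response element TGACGTCA (CRE) and the octamer ATGCAAAT, on either strand.
ZNF121: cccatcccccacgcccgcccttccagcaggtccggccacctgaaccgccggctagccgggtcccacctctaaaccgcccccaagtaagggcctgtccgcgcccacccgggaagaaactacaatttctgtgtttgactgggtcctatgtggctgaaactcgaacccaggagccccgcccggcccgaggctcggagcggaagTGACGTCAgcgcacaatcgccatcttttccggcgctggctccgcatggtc
ZNF266: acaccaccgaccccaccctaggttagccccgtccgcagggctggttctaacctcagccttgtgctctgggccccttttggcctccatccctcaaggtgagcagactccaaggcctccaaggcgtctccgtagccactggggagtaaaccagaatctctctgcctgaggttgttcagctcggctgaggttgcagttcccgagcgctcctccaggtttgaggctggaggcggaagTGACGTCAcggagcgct
ZNF69: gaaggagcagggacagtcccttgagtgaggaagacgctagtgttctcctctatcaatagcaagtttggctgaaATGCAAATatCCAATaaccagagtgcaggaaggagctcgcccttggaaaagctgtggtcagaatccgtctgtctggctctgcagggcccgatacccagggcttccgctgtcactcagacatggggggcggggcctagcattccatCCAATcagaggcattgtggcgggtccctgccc
ZNF491: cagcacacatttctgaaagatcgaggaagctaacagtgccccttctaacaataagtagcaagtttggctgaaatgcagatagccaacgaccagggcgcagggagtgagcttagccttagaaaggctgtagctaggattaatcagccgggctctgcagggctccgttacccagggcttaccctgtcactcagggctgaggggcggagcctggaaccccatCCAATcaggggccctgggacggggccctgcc
ZNF442: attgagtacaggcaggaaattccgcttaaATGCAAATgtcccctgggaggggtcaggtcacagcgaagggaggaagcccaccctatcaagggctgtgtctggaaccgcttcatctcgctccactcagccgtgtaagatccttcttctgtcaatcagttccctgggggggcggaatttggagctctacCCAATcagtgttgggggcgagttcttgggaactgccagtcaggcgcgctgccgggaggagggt
ZNF799: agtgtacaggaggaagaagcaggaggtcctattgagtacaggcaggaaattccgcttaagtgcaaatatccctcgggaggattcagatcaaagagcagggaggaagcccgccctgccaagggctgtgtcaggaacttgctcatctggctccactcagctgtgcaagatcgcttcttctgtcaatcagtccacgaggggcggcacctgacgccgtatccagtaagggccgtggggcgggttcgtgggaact
ZNF44: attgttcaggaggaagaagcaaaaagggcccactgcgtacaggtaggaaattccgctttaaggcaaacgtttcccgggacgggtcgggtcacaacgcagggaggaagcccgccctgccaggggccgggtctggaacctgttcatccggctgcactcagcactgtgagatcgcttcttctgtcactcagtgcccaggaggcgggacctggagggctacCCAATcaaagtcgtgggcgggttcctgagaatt
ZNF844: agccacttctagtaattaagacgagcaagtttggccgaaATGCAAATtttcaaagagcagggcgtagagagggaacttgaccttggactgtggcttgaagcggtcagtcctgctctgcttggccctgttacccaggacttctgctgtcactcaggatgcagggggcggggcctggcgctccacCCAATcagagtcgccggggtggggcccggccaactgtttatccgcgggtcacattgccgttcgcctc

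The CCAAT box, which the factor NF-Y binds, was present in 20 of 28 member promoters (71.4%) and in 34.5% of all promoters of this length. It divided the blocks, with 17 of 19 proximal promoters holding it against 3 of 9 distal ones. The CRE, the palindrome bound by CREB and ATF factors, was present in 4 of 28 (14.3%, against 2.35% of all promoters). All 4 carriers were distal: ZNF121, ZNF266, ZNF426 and ZNF561. The stretch of distal ZNF562 ends in TGACGTC, and whether a CRE is completed past its listed start was not tested. The octamer, the sequence bound by POU factors such as OCT4, was present in 6 of 28 (21.4%, against 1.57%), and all 6 were proximal: ZNF441, ZNF442, ZNF564, ZNF69, ZNF700 and ZNF844. The octamer was added to the search after the sequences had been seen. Its shorter form TGCAAAT, which lies inside the octamer, was present in 8 of 28 (28.6%, against 3.10%), the other two being ZNF699 and ZNF799.

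The octamer had its first base at positions -247 to -177 from the listed start in its 6 carriers. The outer end of this range is near the end of the stretch read. Any motif lying further upstream, or across the listed start, was not counted, so absence here means absence from that stretch. GC boxes (GGGCGG, read by SP1) were present in 24 of 28 (85.7%, against 57.2%). The ETS core CCGGAAG was found in 1 of 28, against 12.1% of all promoters, and the NRF1 core GCATGCGC in 1 of 28, against 3.69%. All motifs were sought on both strands. Member promoters held a median of 13.5 CpG dinucleotides (7 to 22), where the median over all promoters was 18, at a median GC content of 60.0% against 62.4%. Since the members are tandem duplicates, shared letters in their promoters are not independent of each other.

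Over the whole series, the correlation of replicate arrays was 0.9960 to 0.9970, and the closest arrays of different conditions reached 0.9952. The targeted transcripts were lower in their own knockdowns, WDR5 by a log2 difference of -1.21 in siWDR5, EED by -1.29 in siEED and -1.61 in the dual knockdown, and SETD2 by -1.75 in siSETD2, while RNF2 was not analysed here. EED also fell in siRNF2 (-0.66), and in siWDR5 (-0.54) and siSETD2 (-0.42) it passed the adjusted p and not the fold limit, so it lay below these siNTC arrays in all 5 knockdowns. The 4 pluripotent cell markers measured (SOX2, LIN28A, DPPA4, DNMT3B) lay between 11.43 and 12.84 on the log2 scale on every array, and 9 markers of blood, fibroblast, epithelial, liver and yolk sac cells lay between 4.12 and 6.34. A gene was called when its Benjamini-Hochberg adjusted p from limma, over all 18417 genes, was under 0.05 and its fold change was at least 1.5, which is 0.58 on the log2 scale. The design has 2 arrays per condition, which limits the precision, and fewer transcripts per cell cannot be told apart from fewer cells that express a gene.

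Against siNTC, the members that moved were nearly all lower, and a small set moved in nearly every knockdown. ZNF442 and ZNF799, near neighbours in the proximal block, fell in all 5 knockdowns. ZNF69 of the proximal block and ZNF121 of the distal block fell in 4, all except siEED. A further 5 members were called lower in 1 knockdown each, ZNF844 rose in siEED, and 19 members were not called in any of the 5. The shares of all genes called in 1 or in none of the 5 were not counted, so these counts have no background. The single calls follow from the fold limit and do not mark changes found in 1 knockdown only. ZNF791 and ZNF823, for example, were lower by the adjusted p in all 5 knockdowns.

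In siWDR5, 4 members were called lower, against 3.22% of all genes, and 0 were called higher by limma, against 2.8% of all genes (1 member was higher at an unadjusted p under 0.05). In siEED, 2 members were lower (background 2.63%) and 1 was higher (background 3.74%). In siRNF2, 5 were lower (background 3.81%) and 0 were higher by limma (background 6.37%, with 4 members higher at an unadjusted p under 0.05). The dual knockdown had the most, with 7 lower (background 6.02%) and 0 higher by limma (background 5.49%, with 2 members higher at an unadjusted p under 0.05). In siSETD2, 5 were lower (background 3.18%) and 0 were higher by limma (background 2.64%, with 2 members higher at an unadjusted p under 0.05). As shares of the 29 members the lower calls were 13.8%, 6.90%, 17.2%, 24.1% and 17.2% in that order, each above its background share of lower calls.

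The median log2 difference of the members was -0.20 in siWDR5, -0.15 in siEED, -0.084 in siRNF2, -0.20 in the dual knockdown and -0.33 in siSETD2, where the medians over all genes were -0.027, -0.033, -0.038, -0.018 and -0.010. At an unadjusted p under 0.05, 14, 10, 11, 13 and 19 members were lower in the same order, where 4465, 4516, 4997, 4669 and 3880 of the 18417 genes were. In siSETD2, where the median was lowest, 24 of 29 members had a difference below 0, and 17 were lower by the adjusted p with or without a fold of 1.5, where 2917 of all genes were. In all 5 knockdowns 14 members had a difference below 0, and 0 had a difference above 0 in all 5. The same count was not made over all genes, and the 5 differences share the siNTC arrays. In the siRNF2 arrays the median over the genes stood 0.13 (log2) above that of siNTC. With each array centred on that median, 7 members were lower in siRNF2, ZNF791 and ZNF823 being added to the 5. The median over all transcript clusters went the other way, differing from siNTC by -0.054 in siRNF2. With arrays centred on it, ZNF443 lost its lower call in siRNF2 (-0.55), and ZNF266 (0.62) and ZNF844 (0.59) were called higher. Shares of all genes were not counted under these centrings.

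**Figure D1:**
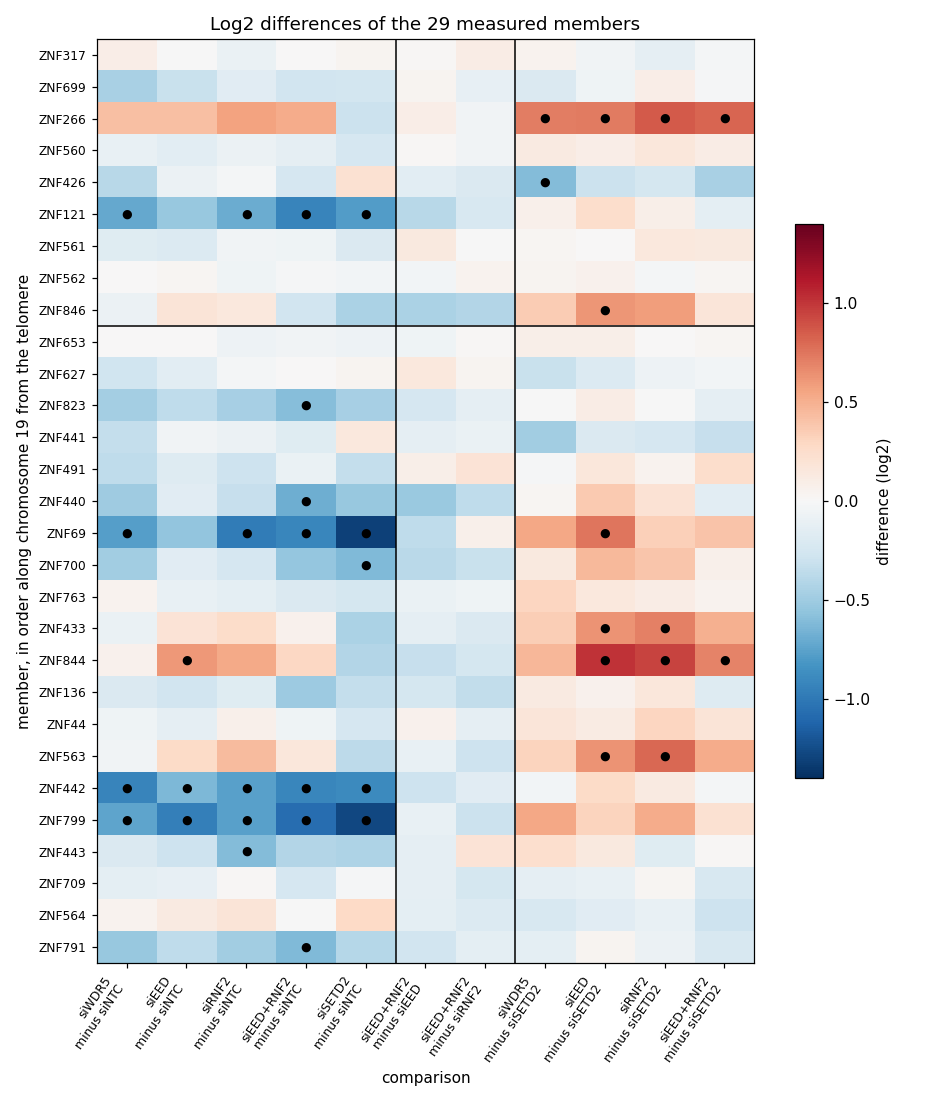
Log2 differences of the 29 measured members (down the side, in order along chromosome 19, with the distal block above the horizontal line) in 11 comparisons (along the bottom), coloured from blue (lower) to red (higher), with a dot where a member was called. The first 5 columns are against siNTC, the next 2 set the dual knockdown against the single ones, and the last 4 are against siSETD2. ZNF442 and ZNF799 are dotted in all of the first 5 columns, and ZNF266 in all of the last 4.

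ZNF442 measured 7.44 and 7.35 (log2 expression) in siNTC, 6.34 and 6.61 in siWDR5, 6.75 and 6.80 in siEED, 6.67 and 6.59 in siRNF2, 6.68 and 6.28 in the dual knockdown, and 6.54 and 6.47 in siSETD2. Every knockdown array was below both siNTC arrays. Its log2 differences from siNTC were -0.93, -0.63, -0.76, -0.92 and -0.89 in that order (standard error 0.12), with limma adjusted p from 5.9e-05 in the dual knockdown to 0.0016 in siEED. The call in siEED was lost without siNTC replicate 1 (-0.58). The RefSeq spans of ZNF442 and ZNF563 overlap, and which of them any probes in the shared stretch read was not tested.

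ZNF799 measured 6.83 and 6.78 in siNTC, 6.06 and 6.06 in siWDR5, 5.89 and 5.80 in siEED, 6.07 and 6.01 in siRNF2, 5.90 and 5.58 in the dual knockdown, and 5.62 and 5.44 in siSETD2. The 2 siSETD2 arrays and 1 dual array were the lowest, and no knockdown array reached siNTC. Its log2 differences were -0.74, -0.96, -0.76, -1.06 and -1.28 (standard error 0.10), so that 41.2% of the siNTC signal was left in siSETD2 (limma adjusted p = 2.7e-06).

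ZNF69 measured 7.88 and 7.72 in siNTC, 7.01 and 7.06 in siWDR5, 7.06 and 7.43 in siEED, 6.71 and 6.94 in siRNF2, 7.02 and 6.77 in the dual knockdown, and 6.75 and 6.24 in siSETD2. Its difference in siSETD2, -1.31 (standard error 0.16, limma adjusted p = 9.9e-05), was the largest of any member in any comparison. The values in siWDR5, siRNF2 and the dual knockdown were -0.77, -0.98 and -0.91. In siEED it was -0.56, short of the fold limit, and it passed without siEED replicate 2 (-0.74) or siNTC replicate 2 (-0.64) and with arrays centred on the median over the genes (-0.64). The RefSeq span of ZNF69 overlaps those of ZNF700 and ZNF763, and which of them the probes in the shared stretch read was not tested.

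ZNF121, the brightest member, measured 11.35 in both siNTC arrays, 10.66 and 10.61 in siWDR5, 10.84 and 10.79 in siEED, 10.68 and 10.63 in siRNF2, 10.45 and 10.39 in the dual knockdown, and 10.46 and 10.67 in siSETD2. Replicates lay close together and all 10 knockdown arrays were below siNTC. Its log2 differences were -0.72, -0.53, -0.70, -0.93 and -0.78 (standard error 0.07), with a limma adjusted p of 1.2e-06 in the dual knockdown. The siEED value passed the limma adjusted p (0.00016) and not the fold limit, which it reached with arrays centred on the median over the genes (-0.62).

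**Figure D2:**
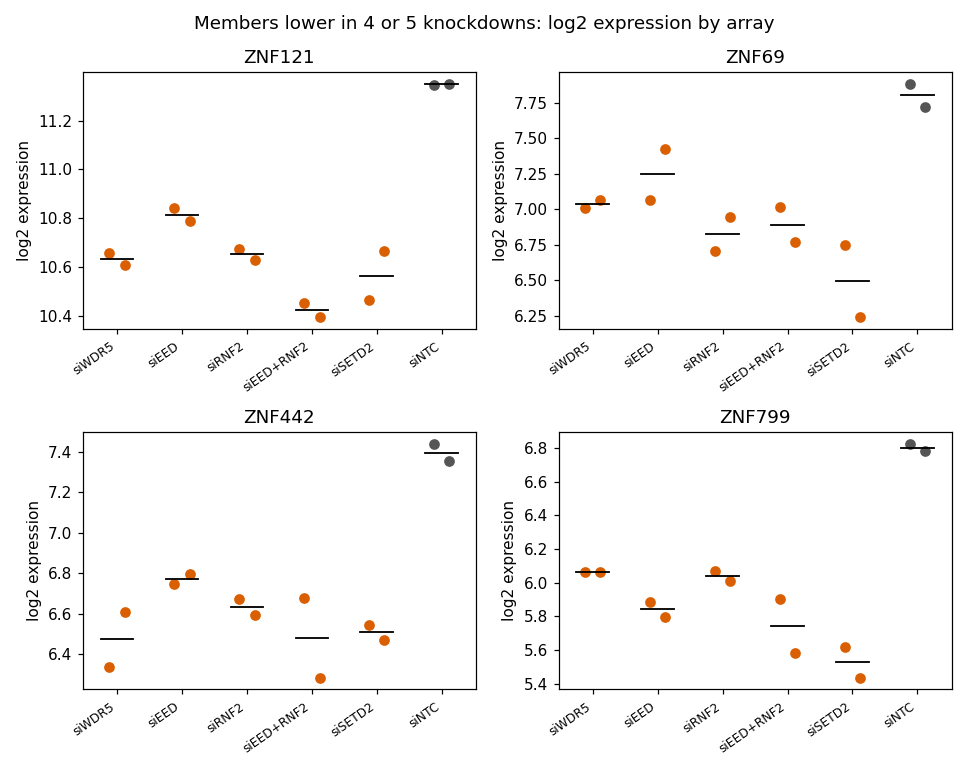
Log2 expression of ZNF121, ZNF69, ZNF442 and ZNF799 on each of the 12 arrays, by siRNA, with siNTC in grey, knockdowns in orange and a bar at each condition's mean. All knockdown arrays lie below both siNTC arrays for each of the 4 genes, and siSETD2 reaches lowest for ZNF69 (6.24) and ZNF799 (5.44).

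These 4 members, 13.8% of the 29, were called lower in 4 or 5 of the knockdowns, as were 244 genes, 1.32% of all genes. The 5 comparisons share their control arrays, so they do not repeat one another. Apart from ZNF442 in siEED, no call of these 4 members against siNTC was lost under any of the 19 alternatives run. Set against siSETD2 in place of siNTC, ZNF69 was higher in siEED by 0.75 (limma adjusted p = 0.0039), and ZNF121, ZNF442 and ZNF799 were not called in any of the 4 comparisons. The ZNF69 call was lost without siEED replicate 2 (0.57) or siSETD2 replicate 2 (0.50). Without siSETD2 replicate 1, ZNF69 was also called higher in siWDR5 (0.80), the dual knockdown (0.65) and siRNF2 (0.59), and ZNF799 in siWDR5 (0.63) and siRNF2 (0.60).

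The members called lower in a single knockdown were smaller changes of the same direction. Several passed the adjusted p in other knockdowns too, short of the fold limit, such as ZNF440 in siWDR5 (-0.50), siRNF2 (-0.33) and siSETD2 (-0.53). ZNF440 measured 6.05 and 6.21 in the dual knockdown and 6.82 and 6.80 in siNTC, with siWDR5 at 6.22 and 6.41, siEED at 6.60 and 6.69, siRNF2 at 6.50 and 6.47 and siSETD2 at 6.31 and 6.26. Its dual value of -0.68 (standard error 0.08, limma adjusted p = 2.4e-05) was kept under every alternative. ZNF791, the second brightest member, measured 9.17 and 9.06 in the dual knockdown, 9.22 and 9.18 in siWDR5, 9.43 and 9.32 in siEED, 9.31 and 9.19 in siRNF2, 9.34 and 9.33 in siSETD2 and 9.81 and 9.65 in siNTC. All 10 knockdown arrays were again below siNTC, and the dual difference was -0.62 (limma adjusted p = 4.7e-05). ZNF823 measured 6.90 and 7.04 in the dual knockdown, 7.16 and 7.03 in siWDR5, 7.29 and 7.13 in siEED, 7.12 and 7.09 in siRNF2, 7.12 and 7.08 in siSETD2 and 7.68 and 7.46 in siNTC, with a dual difference of -0.59 (limma adjusted p = 0.00019). Both of the latter sat near the fold limit and lost the call without siNTC replicate 1 (ZNF791 -0.54, ZNF823 -0.48) and without 1 dual array (ZNF791 -0.56 without replicate 2, ZNF823 -0.53 without replicate 1).

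ZNF700 measured 6.62 and 6.64 in siSETD2, 6.90 and 6.62 in siWDR5, 7.08 and 7.09 in siEED, 7.16 and 6.87 in siRNF2, 6.74 and 6.67 in the dual knockdown and 7.28 and 7.21 in siNTC. The siSETD2 difference was -0.62 (standard error 0.10, limma adjusted p = 0.00076), and it was lost without siNTC replicate 1 (-0.58). ZNF443 measured 5.87 on both siRNF2 arrays, 6.03 and 6.51 in siWDR5, 6.13 and 6.23 in siEED, 6.11 and 6.01 in the dual knockdown, 5.84 and 6.24 in siSETD2 and 6.50 and 6.45 in siNTC. Its replicates in siWDR5 and siSETD2 were wide apart, and the siRNF2 difference of -0.60 (standard error 0.14, limma adjusted p = 0.0054) was lost without siNTC replicate 1 (-0.58).

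At the other end, ZNF562 and ZNF653 moved least. ZNF653 encodes a zinc finger protein described as a repressor of the nuclear receptor SF-1. ZNF562 measured 6.21 and 6.13 in siWDR5, 6.16 and 6.23 in siEED, 6.27 and 5.94 in siRNF2, 6.18 and 6.13 in the dual knockdown, 6.13 and 6.13 in siSETD2 and 6.29 and 6.05 in siNTC. ZNF653 measured 6.40 and 6.41, 6.43 and 6.39, 6.34 and 6.32, 6.31 and 6.39, 6.45 and 6.20, and 6.47 and 6.33 in the same order. In both genes the arrays of every knockdown overlapped the range of siNTC. Over the 19 members not called against siNTC, the largest absolute difference of a member ran from 0.065 (ZNF562) to 0.56 (ZNF266), and the spread between replicate arrays (pooled SD) ran from 0.045 to 0.26 over all members, with a median of 0.11. ZNF560, ZNF563 and ZNF763 were among the 30% of genes with the lowest mean signal, and the other 26 members were not.

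The dual knockdown was also set against each single one, which does not use siNTC. No member was called in either comparison by limma. Against siEED, 0 members were lower where 2.75% of all genes were, and 0 were higher where 0.157% were, with 9 lower and 1 higher at an unadjusted p under 0.05. Against siRNF2, 0 were lower where 3.03% of all genes were, and 0 were higher where 0.239% were, with 10 lower and 1 higher at an unadjusted p under 0.05. The member medians were -0.12 and -0.13, and those of all genes 0.032 and 0.022. Below the fold limit, 5 members passed the adjusted p against siEED and 3 against siRNF2, all of them lower in the dual. With or without a fold of 1.5, 1605 and 2088 of the 18417 genes were lower by the adjusted p in the same order. ZNF440 (-0.52 and -0.36), ZNF121 (-0.39 and -0.23) and ZNF136 (-0.25 and -0.34) passed it in both, and ZNF700 (-0.38) and ZNF791 (-0.27) against siEED. Without siEED+RNF2 replicate 2, ZNF440 was called lower than in siEED (-0.60), and without siEED replicate 1, ZNF846 was (-0.80).

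Zinc finger genes elsewhere were counted beside the members, first in the dual knockdown. Of 29 measured ZNF genes in band 19p12, the pericentromeric cluster of the same arm, 24 (82.8%) were lower in the dual knockdown than in siNTC, with a median difference of -1.06, against 7 of 29 members and a median of -0.20. Among the 19p12 genes ZNF729 (-2.42), ZNF682 (-1.53), ZNF708 (-1.53) and ZNF431 (-1.41) had the lowest values. ZNF genes of 19q13.4 (17 of 90, 18.9%), of the rest of chromosome 19 (12 of 72, 16.7%) and of other chromosomes (40 of 218, 18.3%) were called lower in shares nearer to the 24.1% of the members, with medians of -0.18, -0.21 and -0.077. Against siEED, 18 of the 29 genes of 19p12 and 10 of the 90 of 19q13.4 were lower in the dual, and against siRNF2, 14 and 7, where the members had 0. In siWDR5, siEED, siRNF2 and siSETD2, 27.6%, 10.3%, 27.6% and 27.6% of the 19p12 genes were called lower against siNTC. The members had 13.8%, 6.90%, 17.2% and 17.2%, and 19q13.4 had 8.89%, 3.33%, 4.44% and 6.67%. The rest of chromosome 19 and other chromosomes were also below the members. ZNF729 of 19p12 was called lower in every knockdown. These are counts beside counts, and no test of the difference between the groups was run.

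**Figure D3:**
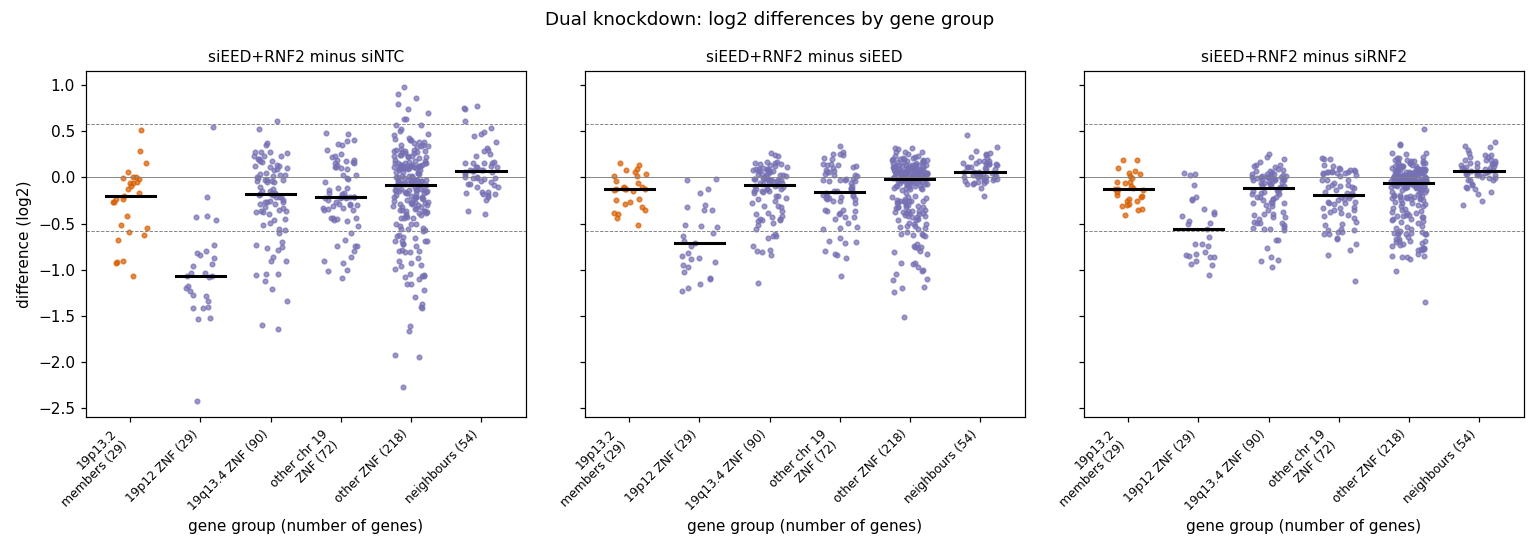
Log2 differences of single genes (points) in the dual knockdown against siNTC, siEED and siRNF2, for the 29 members (orange), other ZNF genes by region and the neighbours of the members, with a bar at each median and dashed lines at a fold of 1.5. The member medians lie at -0.20, -0.12 and -0.13, and those of the 19p12 genes at -1.06, -0.71 and -0.56.

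Neighbours, taken as other genes that start between the first and the last member, were not called lower against siNTC. That stretch includes the gap between the 2 blocks, from 9786160 to 11483429, which holds no measured member. Neighbours inside the gap were not counted apart from those beside members. Of 54 measured protein-coding neighbours that are not named ZNF, 0 were called lower in any of the 5 knockdowns against siNTC by limma, with 11, 10, 12, 7 and 6 lower at an unadjusted p under 0.05 in siWDR5, siEED, siRNF2, the dual knockdown and siSETD2. Lower calls over all genes were 3.22%, 2.63%, 3.81%, 6.02% and 3.18%. Higher calls among the neighbours numbered 0, 1, 3, 4 and 2 in the same order, at most 7.41% of them, near the shares of all genes (2.8%, 3.74%, 6.37%, 5.49% and 2.64%). They were RAB3D, a small GTPase of secretion (0.67, 0.74, 0.62 and 0.62 in the last 4), OLFM2 (1.05, 0.75 and 0.88 in siRNF2, the dual knockdown and siSETD2), DOCK6, a guanine nucleotide exchange factor (0.70 and 0.77 in siRNF2 and the dual knockdown), and PLPPR2 (0.75 in the dual knockdown).

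The proximal block, with 20 of the 29 members, had 6 called lower in the dual knockdown (30%), 4 in siSETD2 (20%), 4 in siRNF2 (20%), 3 in siWDR5 (15%) and 2 in siEED (10%). Over all genes the shares called lower were 6.02%, 3.18%, 3.81%, 3.22% and 2.63% in that order. In the distal block ZNF121 was the 1 member of 9 called lower (11.1%), in 4 of the 5. The difference between the blocks was not tested. The block medians were -0.11 (distal) and -0.24 (proximal) in siWDR5, -0.085 and -0.15 in siEED, -0.065 and -0.15 in siRNF2, -0.13 and -0.22 in the dual knockdown, and -0.24 and -0.38 in siSETD2.

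Among the 6 members with an octamer in the stretch read, ZNF442 was called lower in 5 knockdowns, ZNF69 in 4 and ZNF700 in 1. ZNF844 was called higher in 1, and ZNF441 and ZNF564 were not called against siNTC. Among the 4 members with a CRE in that stretch, only ZNF121 was called against siNTC. When aligned end to end, 4 pairs of member promoters were over 70% identical, where the median over 378 pairs was 47.5%. In siSETD2 the differences from siNTC within these pairs were -0.36 and -0.43 for ZNF563 and ZNF443 (77.2% identical), -0.24 and -1.28 for ZNF44 and ZNF799 (76.1%), -0.47 and -0.36 for ZNF823 and ZNF563 (73.2%), and -0.34 and -1.31 for ZNF491 and ZNF69 (72.2%). In siRNF2 the differences were 0.45 and -0.60, 0.067 and -0.76, -0.47 and 0.45, and -0.29 and -0.98 for the pairs in the same order. The sign thus differed within some pairs there, the most identical pair included. Differences between genes were not tested. Because near copies can share probe matches, part of any member's signal may come from another member, and this was not tested.

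Several members differed between siSETD2 and the other knockdowns, in comparisons that again leave out siNTC. Relative to siSETD2, siEED had 0 members lower (background 2.43%) and 6 higher (background 3.85%), siRNF2 had 0 lower (background 3.18%) and 4 higher (background 5.49%), and the dual knockdown had 0 lower (background 5.54%) and 2 higher (background 4.89%). The lower counts at an unadjusted p under 0.05 by limma were 2, 2 and 6. In siWDR5 1 member was lower (background 2.99%) and 1 higher (background 2.86%). The member medians were 0.11 in siEED, 0.11 in siRNF2, 0.023 in the dual knockdown and 0.068 in siWDR5, those of all genes -0.021, -0.024, -0.0019 and -0.012. The comparisons of siEED, siRNF2 and siWDR5 with siSETD2 were added after the data had been seen, and all 4 share the siSETD2 arrays.

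ZNF266 measured 7.67 and 7.76 in siSETD2, 8.08 and 7.95 in siNTC, 8.39 and 8.48 in siWDR5, 8.41 and 8.47 in siEED, 8.58 and 8.48 in the dual knockdown, and 8.63 and 8.53 in siRNF2. The siSETD2 arrays were the lowest, siNTC lay between, and the other knockdowns were all above siNTC. Against siSETD2 it was higher by 0.86 in siRNF2, 0.81 in the dual knockdown, 0.72 in siEED and 0.72 in siWDR5 (standard error 0.07, limma adjusted p from 3.6e-06 to 2.4e-05), and these 4 calls were kept under every alternative. Against siNTC its differences were 0.56 in siRNF2, 0.51 in the dual knockdown, 0.42 in siEED, 0.42 in siWDR5 and -0.30 in siSETD2, each with an adjusted p under the threshold and a fold under 1.5. In siRNF2 it passed the fold limit without siNTC replicate 1 (0.62) or siRNF2 replicate 2 (0.61).

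ZNF844 measured 6.30 and 5.99 in siSETD2, 6.60 and 6.50 in siNTC, 6.55 and 6.66 in siWDR5, 7.14 and 7.17 in siEED, 6.92 and 6.75 in the dual knockdown, and 7.19 and 6.98 in siRNF2. The siEED, siRNF2 and dual arrays were all above siNTC and the siSETD2 arrays all below. Against siNTC its values were 0.60 in siEED (standard error 0.11, limma adjusted p = 0.0010), 0.54 in siRNF2, 0.29 in the dual and -0.41 in siSETD2, of which siEED passed both limits. That call was lost without siNTC replicate 2 (0.56) and with arrays centred on the median over the genes (0.52), while siRNF2 gained one without siRNF2 replicate 2 (0.64). Against siSETD2 the values were 1.01 in siEED, 0.94 in siRNF2 and 0.69 in the dual knockdown (limma adjusted p = 2.7e-05, 3.2e-05 and 0.00027), the last of them lost without siSETD2 replicate 2 (0.54).

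The next 4 members were chosen after their values were seen. ZNF433 measured 5.23 and 5.41 in siSETD2, 5.88 and 5.65 in siNTC, 6.04 and 5.86 in siEED and 6.10 and 5.94 in siRNF2, and was higher than in siSETD2 by 0.63 in siEED and 0.70 in siRNF2. The siSETD2 arrays did not overlap those of siEED, siRNF2 or siNTC. ZNF563 measured 4.52 and 4.18 in siSETD2, 4.82 and 4.60 in siNTC, 5.01 and 4.94 in siEED and 5.28 and 5.04 in siRNF2, with differences of 0.63 and 0.81, and it is 1 of the 3 dim members named above. ZNF846 measured 5.65 and 5.33 in siSETD2 and 5.75 and 6.47 in siEED, a difference of 0.62 (standard error 0.20) that rested on siEED replicate 2 (0.26 without it). In ZNF426 siSETD2 was the highest, at 9.49 and 9.54, with siWDR5 at 8.83 and 9.00 and siNTC at 9.27 and 9.34, and siWDR5 was lower than siSETD2 by -0.60.

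Single siSETD2 arrays moved these counts. Without siSETD2 replicate 2, siEED had 3 members higher than siSETD2 in place of 6, ZNF563 (0.45), ZNF69 (0.50) and ZNF846 (0.45) dropping out. Without siSETD2 replicate 1, siRNF2 had 7 in place of 4, the dual knockdown had 4 in place of 2 and siWDR5 had 4 in place of 1. ZNF433 in siEED was lost without siEED replicate 1 (0.54) or siSETD2 replicate 1 (0.54), and ZNF426 in siWDR5 without siWDR5 replicate 1 (-0.52) or siSETD2 replicate 2 (-0.58).

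**Figure D4:**
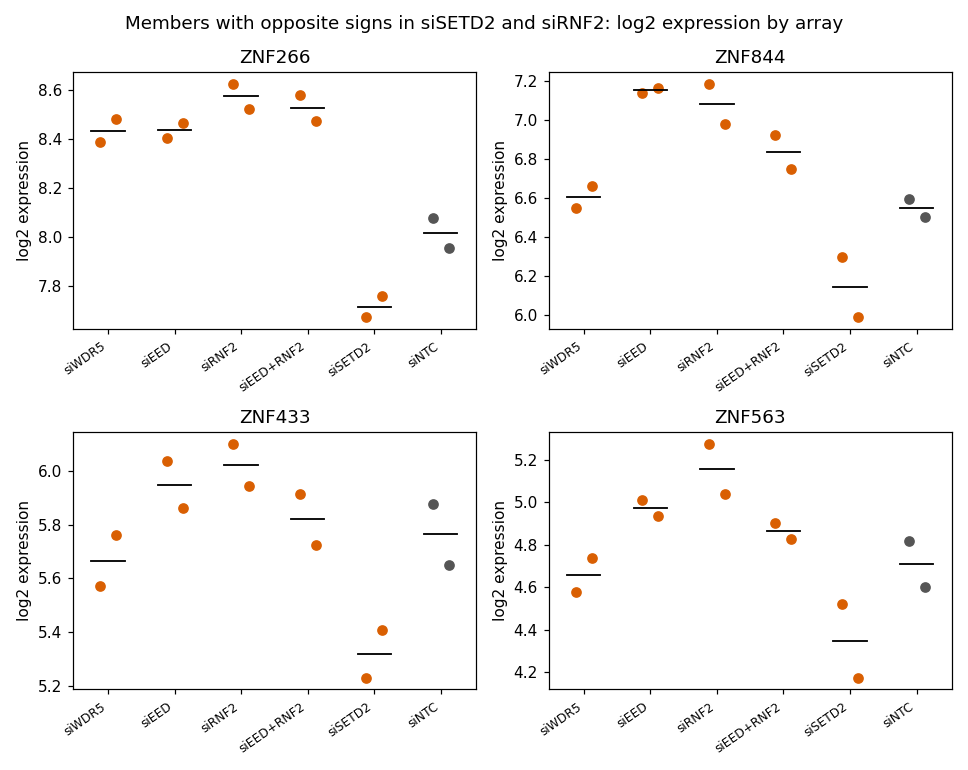
Log2 expression of ZNF266, ZNF844, ZNF433 and ZNF563 on each of the 12 arrays, by siRNA, with siNTC in grey, knockdowns in orange and a bar at each condition's mean. In each gene both siSETD2 arrays lie below both siNTC arrays and both siRNF2 arrays above them, as in ZNF844 with 6.30 and 5.99 against 6.60 and 6.50 and against 7.19 and 6.98.

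The partners through which KRAB zinc finger proteins act were read from a list of 24 corepressor and heterochromatin genes, all measured. In siWDR5 and siSETD2 limma called 0 of them, with 4 lower and 7 higher at an unadjusted p under 0.05 in siWDR5 and 2 lower and 6 higher in siSETD2. In siEED 2 rose, CHD3, a NuRD remodelling ATPase (0.84), and MPHOSPH8, a HUSH complex subunit that binds H3K9me3 (0.70), and 0 fell. In siRNF2 CHD3 rose (0.94) and 3 fell, ATRX, a heterochromatin remodeller (-0.76), ATF7IP, a partner of SETDB1 (-0.66), and CBX1, an HP1 protein (-0.61). In the dual knockdown CHD3 rose (1.13), and ATRX (-1.41), the remodeller SMARCAD1 (-1.10) and ATF7IP (-0.73) fell. ATRX, SMARCAD1 and MPHOSPH8 were also lower in the dual than in siEED (-1.21, -0.92 and -0.75) and than in siRNF2 (-0.65, -0.87 and -0.63), comparisons in which 0 members were called. In a list of this size 1 called gene is 4.17% and 3 are 12.5%, to be read beside 3.74% of all genes called higher in siEED, 6.37% higher and 3.81% lower in siRNF2, 5.49% higher and 6.02% lower in the dual knockdown, and 2.75% and 3.03% lower in the dual than in siEED and siRNF2. The list's medians against siNTC were 0.023, 0.036, -0.089, -0.11 and 0.031 in siWDR5, siEED, siRNF2, the dual knockdown and siSETD2.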

How the data were processed

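Log2 expression was measured on 12 arrays, and samples were grouped and numbered as GEO's labels give them. The authors deposited 1 table of log2 values, already background-corrected and normalized between arrays. GCRMA and Partek are the tools in the submitters' processing notes, with versions and settings not given in the sources used here. Such a normalization sets each array's level and so the balance of higher and lower calls. Of 33297 transcript clusters, 12083 had no gene listed, 1754 had several and 19460 had 1 (19426 matched by gene number to RefSeq). The brightest cluster stood for a gene (769 genes had several), giving 18417 genes. No member had more than 1 cluster.

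All 12 arrays entered 1 limma fit (version 3.58.1, R 4.3.3) with a mean for each condition and 6 residual degrees of freedom, from which 11 comparisons were drawn, 3 of them added after the data were seen. The members, lists and tests were chosen with earlier results of these data known. The fit was tested on simulated data. Per-array values were given for the members called in most comparisons (ties by largest absolute log2 difference), the 2 brightest and the 2 that moved least. Genes of the other lists were named only if called, up to 4 a list by largest change. Members named outside this rule were chosen after their values were seen. Motifs were counted in RefSeq promoters, and promoters were aligned with Biopython 1.88. Planned groups by protein sequence were not made, since no protein table was used here. Alternatives were quantile normalization, centring on the median over the genes or over all clusters, a gene's mean over its clusters, a filter that dropped the 30% dimmest genes, a replicate block, a variance trend with robust moderation, and leaving out each array. Plots used matplotlib 3.10.9 (Python 3.11.15).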

Additional observations from a re-analysis of the deposited data

Results flagged for a closer look

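For these members the difference from siNTC was unlike in siSETD2 and in another knockdown, by a test of the difference itself (limma over all genes, adjusted p under 0.05 and a fold of at least 1.5). ZNF266 stood higher than in siSETD2 by 0.86 in siRNF2, 0.81 in the dual siEED+RNF2, 0.72 in siEED and 0.72 in siWDR5. ZNF844 stood higher by 0.94 in siRNF2, 1.01 in siEED and 0.69 in the dual. For ZNF433 the values were 0.63 in siEED and 0.70 in siRNF2, and for ZNF563 they were 0.63 and 0.81. ZNF69 (0.75) and ZNF846 (0.62) differed in siEED, and ZNF426 differed in siWDR5, where it was lower (-0.60). All of these comparisons rest on the same 2 siSETD2 arrays. No group had enough arrays to test for a single array far from the others.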

How the results depend on the processing

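Of 418 counts of called members recomputed under 19 alternatives, 18 moved by more than 1.5 times. Centring on the median over the genes gave 4 lower and 0 higher in siEED against siNTC and 3 higher in siEED against siSETD2. Centring on the median over all clusters gave 2 higher in siRNF2 against siNTC and 0 lower in siWDR5 against siSETD2. Leaving out each array in turn gave 1 to 3 lower and 0 to 1 higher in siEED and 0 to 2 higher in siRNF2 against siNTC, 0 to 1 lower in siEED+RNF2 against siEED, and, against siSETD2, 2 to 4 higher in siEED+RNF2, 3 to 6 in siEED, 4 to 7 in siRNF2 and 1 to 4 in siWDR5, where 0 to 2 were lower. Of 38 called member values, 25 kept their call under every alternative that gave a value, 13 lost it under at least 1, and 0 changed sign. With the dimmest genes left out, ZNF563 had no value. Quantile normalization lost ZNF443 in siRNF2 (-0.55) and ZNF791 (-0.56) and ZNF823 (-0.57) in siEED+RNF2, and so did centring over all clusters (-0.55, -0.58 and -0.55). The deviations of same-numbered arrays were weakly correlated (1 of 15 pairs over 0.1, range -0.11 to 0.16), and the main fit did not pair arrays by number. A weak correlation cannot exclude that same-numbered arrays were grown or processed together. With a replicate block the siEED+RNF2 count against siNTC was 7 lower, as without it, and no other count of members changed. The causes of these changes were not tested. With 2 arrays a condition, members near the fold limit are the least certain.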
